A study of Mus musculus with 38 samples.

Results

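The mitotic signal of Halo-HSF2 in cells that lack endogenous HSF2 was compared with the mitotic signal of endogenous HSF2 at each HSF2 binding site, both with α-HSF2. The members are the 2135 distinct HSF2 sites of the study (2141 intervals, with exact repeats counted once), of which 2134 had a signal above 0 in both. The question was which sites and genes kept or lost their place in the ranking of signals when the tagged protein replaced the endogenous protein. CUT&Tag was used, an assay in which a protein A-Tn5 fusion is brought to an antibody on chromatin and cuts adapters into the DNA beside it. The whole series holds 38 libraries, and this comparison rests on 4 of them.

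The endogenous signal came from 2 libraries of wild-type JM8 mouse embryonic stem cells. The rescue signal came from 2 libraries of JM8 cells in which the Hsf2 locus had been deleted with Cas9 and a clone picked (Hsf2-/-), and in which Halo-HSF2 was then stably over-expressed. In Halo-HSF2 the HaloTag and a FLAG tag are on the N-terminus of HSF2. The study integrated its constructs with PiggyBac vectors under the EF1α promoter, so the protein level was not set by the Hsf2 gene. Cells of both genotypes were held for 6 h in 50 ng/ml nocodazole, and the mitotic ones were collected by shake-off. Hsf2-/- cells without a construct, the HA control and IgG were not analysed here, so the part of the rescue signal that would remain without HSF2 was not tested.

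Only the authors' mean over the libraries of each condition was used, in scaled coverage per base over the site. No spread between libraries could be computed, and no difference below was tested across libraries. The values carry no read totals, and the depth of each library was not used here. Intervals of 95% are given over sites (order statistics for medians, Wilson for shares), and they cover no variation between cultures. The sites had been called by the authors on endogenous HSF2 in both phases, and sites that only the rescue might hold are not among them.

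Heat shock factors bind DNA as trimers at heat shock elements, which are runs of inverted GAA units. Under stress they activate genes for chaperones, which fold proteins or keep them from aggregating. HSF2 shares its DNA-binding domain fold and its element with HSF1 and is active in development and in early embryos.

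Elements of 3 inverted units (GAA, TTC, GAA or TTC, GAA, TTC, each unit separated by 2 bases of any kind) were searched on both strands of the GRCm38 (mm10) sequence. Of the 2131 sites with sequence, 300 held at least 1 element (14.1% of all sites). A match is a description of the letters and not a measured contact. The sequences below are printed because the element was more frequent among sites that lost their place (47.9% of them) than among all sites. The element is in capitals, with 8 bases on each side, on the plus strand, and the genome sequence is RefSeq's. The group of 5 comes from chaperone genes whose sites fell in the rescue.
Hspd1/Hspe1: ccgttctaGAACCTTCCGGAAggccccgc
Hsp90aa1: agcctccgGAACCTTCCGGAAgaaccctc
Hsph1: actgaggaGAACTTTCCAGAAtctgcagc
Dnaja1: gccgggcgGAACTTTCCAGAAcgctcggt
Hspb1: tcagaaggGAAGTTTCTGGAAagttttaa
The next pair comes from sites at a coding start that held an element and ranked high in the rescue, chosen after the values had been seen.
Ncapg2: aggatttcTTCAAGAATCTTCttggttac
Mafg: ggatggagTTCAAGAACCTTCacgacaga

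The Hspd1/Hspe1 element (chr1:55088064-55088076) lies 46 bp upstream of the start of Hspd1, and a second run of units overlaps it. At Hsp90aa1 (chr12:110696387-110696399) the element spans the transcription start and its 5′ untranslated exon. Those of Hsph1 (chr5:149636288-149636300) and Dnaja1 (chr4:40722534-40722546) lie in untranslated exon sequence, 44 and 60 bp downstream of the start. The Hspb1 element (chr5:135888909-135888921) is intronic, 897 bp downstream. The Ncapg2 element (chr12:116405036-116405048) lies 360 bp upstream of the start, and the Mafg element (chr11:120632238-120632250) lies in an intron, 1356 bp downstream of a start.

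The rescue signal was lower than the endogenous signal at most sites. The median signal was 5.85 in endogenous HSF2 and 2.44 in the rescue, and the median log2 of rescue over endogenous was −1.12 (95% interval −1.16 to −1.08, n = 2134). The rescue was higher at 132 sites, 6.19% (5.24 to 7.29). This shift depends on how the tracks were scaled, since each was scaled on its own spike-in reads, and whether all tracks share a reference is unclear from the methods. Ranks within a signal do not change with a factor common to the whole averaged track. The scaling of each library still sets its weight in that average. The place of a site was therefore taken as the percent of the 2135 sites with a lower signal, so that the strongest site has a place of 100. Log2 ratios are also given after subtraction of the median, as centred log2 ratios.

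The rankings were only partly alike. Across the 2135 sites Spearman's rho of the rescue with the endogenous signal was 0.36, as a description, since sites share libraries and are not independent. A site was said to have lost its place when it stood 25 or more percentage points lower in the rescue, to have gained when it stood 25 or more higher, and to have kept it when it moved by at most 10. By these limits 409 sites (19.2%) lost their place, 444 (20.8%) gained and 659 (30.9%) kept it. Places are relative, so sites that fall raise the others. A gain in place therefore need not be a gain in signal, which was higher in the rescue at 132 sites. The falls were the larger moves, since 214 sites fell by 50 points or more and 71 rose by as much. At the limits, Kat7 was just inside the lost sites with a change of −25.02 points, and a site near Ptk2b was just outside with −24.79. On the other side, B3gntl1 had 25.02 and Hoxc13 24.98.

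The upper end of the ranking split into a group that stayed and a group that dropped to the bottom. Of the 534 sites in the endogenous top quartile, 269 (50.4%) were in the top quartile of the rescue and 126 (23.6%) were in its bottom quartile. The quartiles between them held 69 and 70. Movement in the other direction was rare, with 20 sites (3.75%) of the endogenous bottom quartile in the rescue top quartile.

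**Figure D1:**
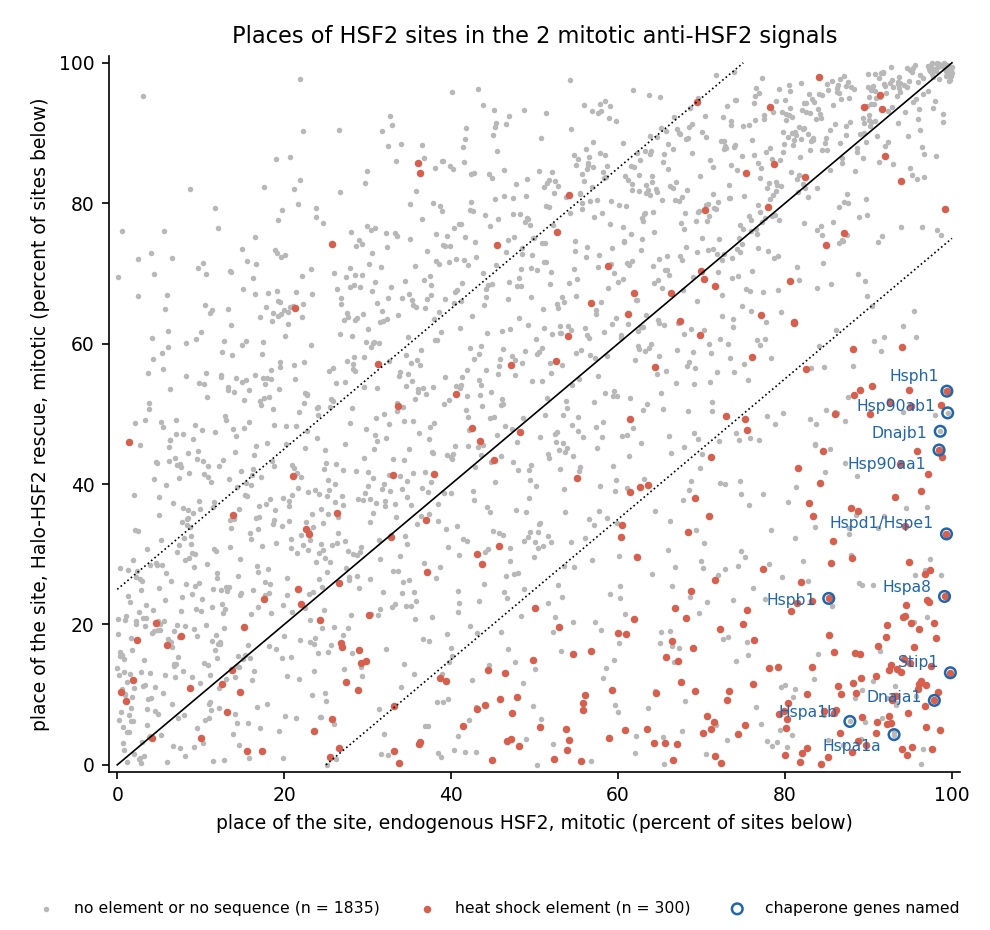
Place of each of the 2135 sites in the mitotic endogenous signal (x axis) and in the mitotic rescue (y axis), in percent of sites with a lower signal. Red points hold a heat shock element, blue rings mark chaperone genes, the solid line is an unchanged place and the dotted lines are a change of 25 points. Most red points lie at the lower right, at a median place of 71.9 in the endogenous signal and 18.4 in the rescue.

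Exact heat shock elements were unevenly spread over these groups, though many sites that lost their place held none. Sites with an element had a median place of 71.9 in the endogenous signal and 18.4 in the rescue, and their median change in place was −44.0 points (−48.8 to −36.0, n = 300). Sites without an element had a median place of 46.3 and 54.9, and a median change of 8.15 points (6.94 to 9.14, n = 1831). Part of this rise follows from the fall of the other sites, since places are relative. With 1 of the unit bases allowed to differ, 1049 sites counted as holding an element, and their median change was −1.73 points, against 9.96 for the rest. In signal, the sites with an element went from a median of 8.28 to 1.33 and the others from 5.58 to 2.61. So the sites with an element were the higher group in endogenous HSF2 and the lower group in the rescue.

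Of the 300 sites with an element, 196 (65.3%) lost their place, 8 (2.67%) gained and 49 (16.3%) kept it. Among the 409 sites that lost their place, 47.9% held an element, against 1.80% of the 444 that gained and 7.44% of the 659 that kept it. The element was found in 67.5% of the 126 sites that went from the endogenous top quartile to the rescue bottom quartile. It was found in 4.83% of the 269 sites in the top quartile of both. By fold, the centred log2 ratio was −1 or lower at 419 sites (19.6% of all) and at 194 of those with an element, and 1 or higher at 173 sites (8.11%) and at 4 of those with an element.

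Along the endogenous ranking the share of sites with an element went from 5.14% in the weakest decile to 32.7% in the strongest. Along the rescue ranking it went the other way, from 40.2% in the weakest decile to 2.83% in the strongest. The intervals of the end deciles did not overlap in either ranking. Sites with 2 elements (n = 35) had a median change of −62.5 points, sites with 1 (n = 255) −41.1 and sites with 3 or more (n = 10) −54.8, so there was no steady order by number.

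**Figure D2:**
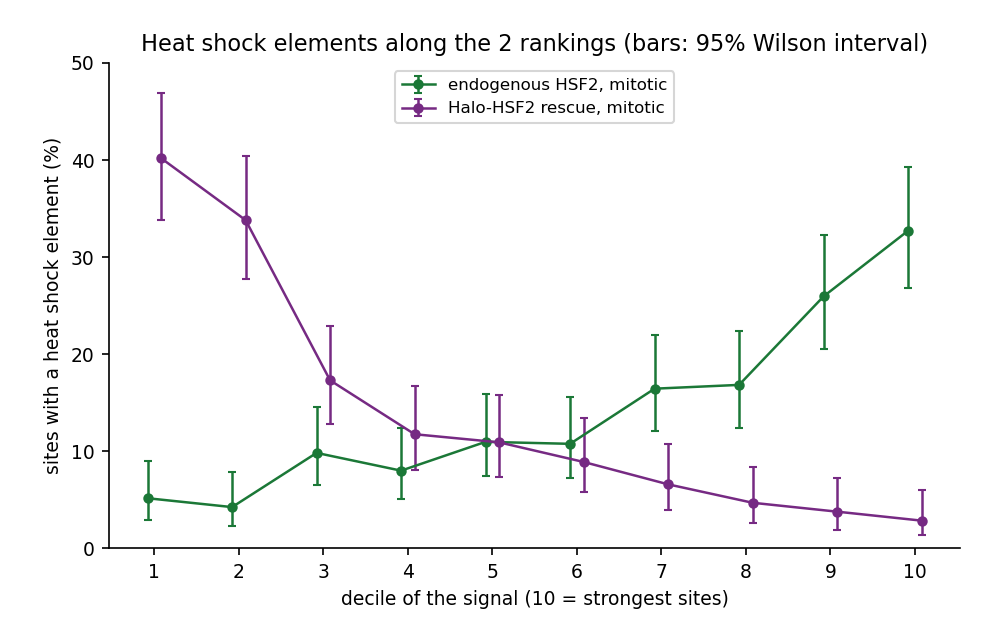
Share of sites with a heat shock element (y axis, percent) in each decile of the mitotic endogenous signal (green) and of the mitotic rescue (purple), with 95% Wilson intervals. The share reaches 32.7% in the strongest endogenous decile and 40.2% in the weakest rescue decile.

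Because a site at the top of a ranking can mostly move down, the sites were also split by endogenous quartile. In the top quartile, the 143 sites with an element had a median signal of 12.97 in endogenous HSF2 and 1.38 in the rescue, and a median place of 89.4 and 19.9. The 390 sites without an element had a nearly equal endogenous median of 12.0, with 4.62 in the rescue and a median place of 86.7 and 85.8. Their median change was −0.80 points (−2.25 to 0.23), against −71.5 (−73.9 to −61.5) with an element. Of these high sites, 26.4% without an element lost their place and 53.3% kept it, against 86.7% and 5.59% with an element.

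The median rescue place of sites with an element was nearly flat over the endogenous quartiles, at 17.4, 14.9, 19.5 and 19.9 from the weakest to the strongest. That of sites without an element went from 32.5 to 52.1, 65.5 and 85.8. The endogenous strength of a site without an element therefore carried over into its place in the rescue, and that of a site with an element did not.

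**Figure D3:**
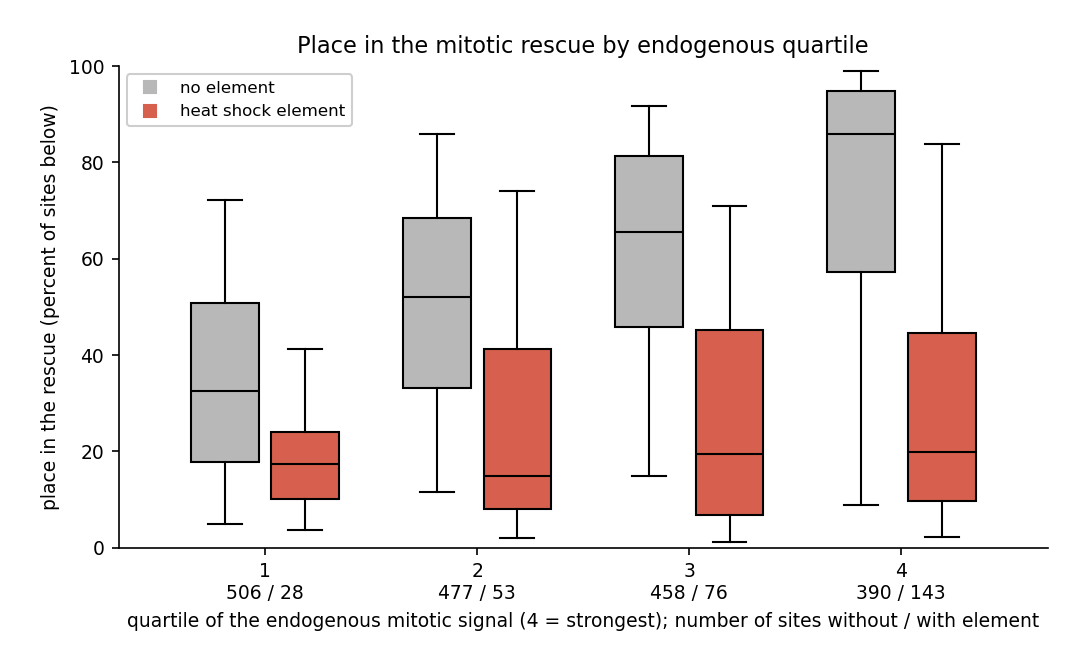
Place in the mitotic rescue (y axis, percent of sites below) for sites without (grey) and with (red) a heat shock element in each quartile of the mitotic endogenous signal (x axis). Boxes span the quartiles with the median as a line, and whiskers reach the 5th and 95th percentiles over sites. The grey medians climb from 32.5 to 85.8, and the red medians stay between 14.9 and 19.9.

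Position and base composition moved with these differences, and their part in them was examined only by splitting the sites. Sites with an element had a median GC content of 52.0%, against 55.6% without. They also had fewer CG dinucleotides (CpG), at a median of 2.56 per 100 bp against 4.67. Spearman's rho with the change in place was 0.33 for CpG density and 0.26 for GC content. The sites were not split by CpG density, so its part was not tested. GC content had a Spearman's rho of 0.29 with the rescue signal and −0.02 with the endogenous signal (n = 2131). In the lowest quartile of GC content the median change was −53.6 points with an element (n = 139) and 1.45 without (n = 394), and in the highest quartile it was −36.6 (n = 23) and 12.7 (n = 510). The fall of sites with an element was present in each of the 4 quartiles of GC content and of site width, with medians from −64.7 to −27.2 points.

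Sites within 1 kb of the start of a coding transcript numbered 1556. With an element (n = 152) they had a median place of 69.4 in endogenous HSF2 and 31.6 in the rescue, and without one (n = 1404) 45.4 and 57.6. Away from coding starts the median place fell from 76.6 to 11.6 with an element (n = 148) and from 50.7 to 43.1 without (n = 427). The sites that gained place were mostly at coding starts, 84.9% of them, against 72.9% of all sites and 50.9% of those that lost place. The median change of sites with an element was thus −32.8 at coding starts and −56.5 away from them.

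Sites that overlapped an HSF1 site by at least 1 bp (n = 868) had a median place of 65.0 in endogenous HSF2 and 46.9 in the rescue, and those that did not (n = 1267) had 41.3 and 51.6. HSF1-overlapping sites had a median change of −50.3 points with an element (n = 191) and 1.87 without (n = 675). For the other sites it was −27.7 (n = 109) and 12.0 (n = 1156), so sites with an element fell in both groups. Their median place went from 81.5 to 17.7 where HSF1 had a site and from 61.9 to 19.7 elsewhere. The larger fall with an HSF1 site thus started from a higher endogenous place, and the rescue places were close. For SOX2, a pluripotency factor that binds another motif, overlapping sites (n = 407) had a median change of −1.17 points and the others 6.70.

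The same pattern was present in asynchronous cells of the same genotypes, which are other libraries. There the median change in place was −46.4 points with an element and 8.58 without, and Spearman's rho between rescue and endogenous signal was 0.17. The top quartiles shared 175 sites, 32.8%, against 269 in mitotic cells. Of the 409 sites that lost their place in mitotic cells, 284 also fell by 25 points or more in asynchronous cells, 69.4%, against 23.7% of all sites. These comparisons share the site list.

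An HA-tagged Halo-HSF2 in Hsf2-/- cells, read with α-HA in mitotic cells, gave a median place of 22.7 at sites with an element and 54.2 at sites without. Halo-H2DBD, the DNA-binding domain construct of HSF2, gave 21.0 and 54.8 with the same antibody in mitotic cells. Both were on the same side as the 18.4 and 54.9 of the rescue with α-HSF2, and opposite to the 71.9 and 46.3 of endogenous HSF2.

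Most sites at chaperone genes lost their place. Of 124 chaperone and heat shock genes, 39 had a start within 1 kb of an HSF2 site, at 37 sites. The median place of these sites was 80.4 in the endogenous signal and 25.6 in the rescue, and 24 of 37 (64.9%) lost their place, against 19.2% of all sites. Of the rest, 2 gained, 5 kept it and 6 moved by 10 to 25 points. The median change of the 37 sites was −44.8 points (−61.5 to −18.7), against 4.83 over all sites. These sites started high, 23 of them in the endogenous top quartile. In that quartile 86.7% of sites with an element and 26.4% of those without lost their place. The centred log2 ratio was −1 or lower at 25 of the 37 and 1 or higher at 1. An element was found at 15 of the 37, with a median change of −53.6 points, and the 22 without an exact element had −30.9. With 1 unit base allowed to differ, 28 of the 37 held an element. The order was not the same in every list. HSP70 and HSP110 sites had −46.2 with an exact element and −81.6 without, and chaperonin sites −42.6 and −54.4. In the other chaperone lists the sites with an exact element had the lower median change.

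The 6 sites of HSP70 and HSP110 genes had a median change of −60.6 points, and 5 of them lost their place. Hspa8, the constitutive HSP70 that folds new proteins, had a signal of 79.3 (rank 20) in endogenous HSF2 and 1.54 (rank 1623) in the rescue, in a site with 2 elements. Hsph1, the HSP110 that exchanges nucleotide on HSP70, went from 96.6 (rank 14) to 2.55 (rank 999). Both had been among the strongest endogenous sites, and neither stood clear of the rescue median of 2.44.

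The stress-inducible HSP70 genes Hspa1a and Hspa1b are near-identical copies that lie side by side, and reads shared between them make the split uncertain. The Hspa1a site, shared with Hspa1l, went from 15.9 (rank 149) to 0.66 (rank 2043), which is 24.0 times lower. The Hspa1b site went from 12.3 (rank 262) to 0.78 (rank 2003). Hspa9, the mitochondrial HSP70, was the member that kept its place, with 8.24 (rank 608) and 3.25 (rank 679).

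Genes of HSP90 and its co-chaperones gave 10 sites, of which 9 lost their place, with a median change of −56.7 points. Stip1, which passes clients from HSP70 to HSP90, had the fifth strongest endogenous signal of all sites, 146.5 (rank 5), and 1.12 (rank 1855) in the rescue. This was a difference of 130.5 times. Hsp90aa1, the inducible cytosolic HSP90, went from 60.3 (rank 34) to 2.23 (rank 1178), and Hsp90ab1, the constitutive cytosolic HSP90, from 101.8 (rank 12) to 2.44 (rank 1065). Sgta, a co-chaperone of tail-anchored proteins, was the exception and stood at 11.7 (rank 304) and 6.72 (rank 130).

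Of the 11 sites of HSP40 and BAG genes, 4 lost their place and 2 gained. Dnajb1, the stress-inducible HSP40, went from 61.9 (rank 31) to 2.33 (rank 1121), and Dnaja1, another cytosolic HSP40, from 37.9 (rank 46) to 0.91 (rank 1939). Dnajc13, a J protein of endosomes, rose in rank from 1173 to 145, with signals of 5.46 and 6.39. The list thus held both directions, with a median change of −12.1 points.

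Chaperonin genes gave 6 sites, of which 4 lost their place and none kept or gained it. Hspd1 and Hspe1, which encode the mitochondrial HSP60 and its HSP10 lid, share a promoter and a site whose signal went from 96.6 (rank 15) to 1.83 (rank 1433). Tcp1, a subunit of the cytosolic chaperonin, shares its site with Mrpl18 and went from rank 372 to 2085. Among small HSP and other heat shock genes, Hspb1, the small HSP known as HSP27 in humans, went from 11.5 (rank 316) to 1.53 (rank 1629), 2 of the 4 sites lost their place, and Lonp1 and Hspb11 kept theirs.

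The mean over a wide site dilutes a narrow peak, and the sites of Hsp90aa1 (11887 bp) and Hspa8 (10517 bp) were the widest of these. The same interval was used for both signals, and their rescue means of 2.23 and 1.54 were below the median of 2.44. By total signal, the mean times the width, Hsp90aa1 went from rank 2 to 59 and Hspa8 from rank 1 to 186. Both kept their place on that scale, which puts the large width of these sites into both rankings. On the same scale Stip1 went from 4 to 1461, Hspd1/Hspe1 from 5 to 627, Hsph1 from 11 to 895 and Dnajb1 from 23 to 1271.

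**Figure D4:**
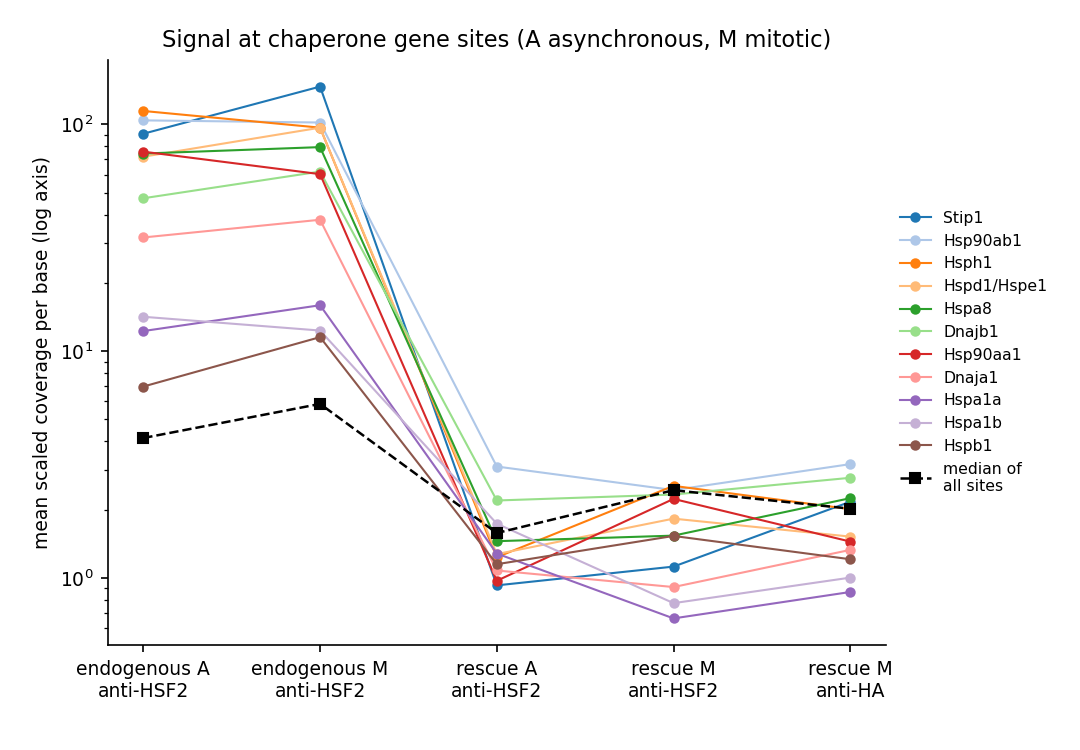
Mean scaled coverage per base (y axis, log scale) at 11 chaperone gene sites in 5 signals, with the median of all sites as black squares; A is asynchronous, M is mitotic, and levels between signals also depend on their scaling. All 11 sites lie above the median of all sites in both endogenous signals, and in the mitotic rescue with α-HSF2 they lie between 0.66 and 2.55, around or below the median of 2.44.

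In the other rescue signals the genes differed. The 37 chaperone sites had a median place of 37.0 in the asynchronous rescue and 29.9 with α-HA in mitotic cells. Hsp90aa1 ranked 13 in asynchronous endogenous HSF2, 1630 in the asynchronous rescue and 1556 with α-HA in mitotic cells. Stip1 ranked 10, 1668 and 950, and Hspd1/Hspe1 16, 1356 and 1496. Dnajb1, at 25, 631 and 620, and Hsp90ab1, at 7, 269 and 447, stood higher in those rescue signals. With α-HA, Ahsa2, an activator of the HSP90 ATPase, and Hspbp1, a nucleotide exchange factor of HSP70, were also high, at ranks 109 and 121.

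Among the HSF genes, 2 had a site and both kept a low place. The site shared by Hsf1 and Bop1 ranked 1747 in endogenous HSF2 and 1612 in the rescue, with signals of 3.48 and 1.56. Hsf4 ranked 1661 and 1466. Hsf2 had no HSF2 site within 1 kb of its starts.

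Sites that kept their place at the very top were of another kind. The lists of the 100 strongest sites in the endogenous signal and in the rescue shared 37 sites, 37% of each list. Of these 37, none held an element, 7 were at a coding start, and the median width was 770 bp, against 2395 bp for all sites. By contrast, 30 of the 100 strongest endogenous sites held an element, and 0 of these 30 were among the 100 strongest of the rescue. Their rescue signals lay between 0.55 and 3.89.

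The 10 sites with the best worst rank of both signals were all away from coding starts. Each is named by its nearest coding start, from 1728 bp away (Aida) to 1765731 bp away (G6pd2). The distance was 328869 bp for Ajap1 and 76225 bp for Fhl4. The site near Aida had 79.3 (rank 21) in endogenous HSF2 and 79.2 (rank 4) in the rescue, and that near Ajap1 had 79.3 (rank 22) and 80.5 (rank 3). The site near G6pd2 had 99.1 (rank 13) and 49.6 (rank 9), and that near Fhl4 75.4 (rank 26) and 48.5 (rank 10). The last pair was also very high with α-HA in mitotic cells, at 551 and 725 for Halo-HSF2 and 282 and 493 for Halo-H2DBD. Sites near Gm6020, Aida and Gtpbp4 overlapped HSF1 sites with mitotic HSF1 signals of 82.3, 71.9 and 68.4. In asynchronous endogenous HSF2 the sites near Batf3, Zfp945 and Aldh9a1 had 9.70, 7.98 and 5.04. Those near G6pd2, Fhl4 and Ajap1 had 141, 142 and 125 there. Whether the signal at these sites is particular to HSF2 was not tested. Sites near Gm6020, Col6a6, Gtpbp4, Aldh9a1, Batf3 and Zfp945 made up the rest, with rescue ranks of 12 to 23.

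A share of 16.2% of the 37 shared sites was at least 50% repeat-masked, against 2.48% of all sites. The part of repeats in these places was not tested.

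The 10 largest falls from the endogenous top quartile took sites from the upper tail to the last ranks. They were near Ndn, Lmcd1, Gm11733, Akr1b8, Tcp11, Mpzl1 and Slain2 and at Ly6k, Hspa1a and Dnaja1, and 7 of them held an element. The site near Ndn, 114475 bp from its start, went from 21.3 (rank 81) to 0.19 (rank 2131), the lowest rescue signal of the group. That near Akr1b8, an aldo-keto reductase gene 8317 bp away, went from 61.7 (rank 32) to 0.70 (rank 2029). At Ly6k the site with an element at the start went from 18.2 (rank 115) to 0.45 (rank 2106).

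The 10 largest gains into the rescue top quartile held no element. The largest was a site near Mdga2, 161226 bp from its start and 82.3% repeat-masked, which went from 1.87 (rank 2068) to 7.56 (rank 103). Sites near Vmn2r-ps159 and near Zfy1 on chromosome Y, 61.1% and 85.4% repeat-masked, came next. They lay 25591 and 533603 bp from those starts. The other 7 lay at the starts of Phtf2 and Tmem60, Rpl23, Rab5a, Leprot, Urgcp, Cfdp1 and Map4. Rab5a, a GTPase of early endosomes, went from 3.75 (rank 1659) to 5.53 (rank 208), and Leprot from 2.90 (rank 1886) to 3.91 (rank 442). In signal these gains were small beside the falls, and they started from weak endogenous sites.

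Few sites with an element stood high in the rescue, and these were singled out after their values had been seen. Ncapg2, a condensin II subunit, had 7.99 (rank 653) in endogenous HSF2 and 6.93 (rank 121) in the rescue, and Mafg, a small Maf transcription factor, 9.58 (rank 466) and 6.53 (rank 134). A site with an element near Mier3, 37790 bp from its start, ranked 100 in the rescue.

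The other gene lists had medians from −12.8 to 31.5 points. The 17 sites of cytosolic ribosomal protein genes had a median change of 14.7 points, against 4.83 points over all sites. Of these, 11.8% lost, 23.5% gained and 29.4% kept their place, against 19.2%, 20.8% and 30.9% of all sites, so the shares of gained and kept sites were near those of all sites. Rpl6 and Rps13, each with an element, fell by 76.7 and 55.8 points, and Rpl23 and Rpl41 (a site shared with Zc3h10) rose by 70.5 and 56.3. Those that fell came from signals of 12.8 and 6.90, and those that rose from 2.23 and 3.22.

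Translation factor genes gave 9 sites with a median change of 24.7 points, of which 4 gained (44.4%, against 20.8% of all sites) and 0 lost their place (against 19.2%). These sites started low, at a median endogenous place of 25.7. In the lowest endogenous quartile 41.5% of sites without an element gained and 0% lost, and in the next quartile 35.8% and 6.08%. Eif4e, the cap-binding protein, rose from rank 1727 to 694 and Eif4b, a helicase cofactor, from 1587 to 551. The Eif4b site rose although it held an element. Eif5a, with the strongest signal of the list, stayed high at 18.4 (rank 111) and 10.2 (rank 55), and Eif5 had the lowest change, −12.7 points.

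Among 6 proteasome and ubiquitin sites 1 lost and 1 gained its place (16.7% each, near the 19.2% and 20.8% of all sites), with a median of −12.8 points. Psmd7, a subunit of the proteasome lid, rose from rank 1551 to 651. Ubb, a polyubiquitin gene, and Psme3, a proteasome activator, changed by −6.70 and −18.1 points.

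Replication-dependent histone genes gave 17 sites, of which 12 kept their place (70.6%), against 30.9% of all sites. Their median change was 0.75 points (−1.59 to 3.23). The site of Hist1h2ah and Hist1h2bk lost its place, from rank 712 to 1823, and that of Hist2h2aa1 and Hist2h3c1 rose from 583 to 263. Histone genes are repeated and alike, so the share of reads at each copy is uncertain.

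Of the 4 sites of mitosis genes, 1 lost and 2 gained their place, a list too short to set against the 19.2% and 20.8% of all sites. Cenpf, a kinetochore protein gene whose site held an element, went from 12.6 (rank 242) to 1.95 (rank 1362). Smc3, a cohesin subunit, rose from rank 1871 to 951, and Cenpc1, which marks centromeres, from 1863 to 846. Ncapd2, a condensin I subunit, shares its site with Mrpl51 and rose by 19.8 points.

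Chromatin regulator genes gave 9 sites with a median change of 16.3 points, 1 lost, 3 gained and 2 kept (11.1%, 33.3% and 22.2%, against 19.2%, 20.8% and 30.9% of all sites). Jarid2, a partner of the Polycomb complex PRC2, went from 9.92 (rank 435) to 1.64 (rank 1564) without an exact element. Pcgf2 and Cbx8, subunits of PRC1, rose by 29.9 and 39.97 points. Kmt2b, a histone methyltransferase, changed by −4.17 points.

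Of 22 pluripotency genes, 5 had a site, none with an element, and their median change was 7.08 points. Pou5f1 had 5.77 (rank 1090) in endogenous HSF2 and 1.94 (rank 1367) in the rescue, and Klf4 4.07 (rank 1573) and 1.79 (rank 1461). Klf5 gained, from rank 1371 to 742, and Klf2 rose by 10.8 points. No HSF2 site was within 1 kb of the starts of Sox2 or Nanog.

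Small nuclear RNA genes, short RNAs of the spliceosome with many copies, lay at 25 sites with a median change of −0.75 points, which was 6.70 with starts taken within 5 kb. Of these sites 28% lost, 8% gained and 28% kept their place, against 19.2%, 20.8% and 30.9% of all sites. The largest fall among them was at Parp16, whose site held an element and went from 13.1 (rank 221) to 0.58 (rank 2075). Next was a site near Prr13, also with an element, from rank 124 to 1813. Sites near Skor1 and near BC107364 had the largest gains, 44.3 and 29.4 points.

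**Figure D5:**
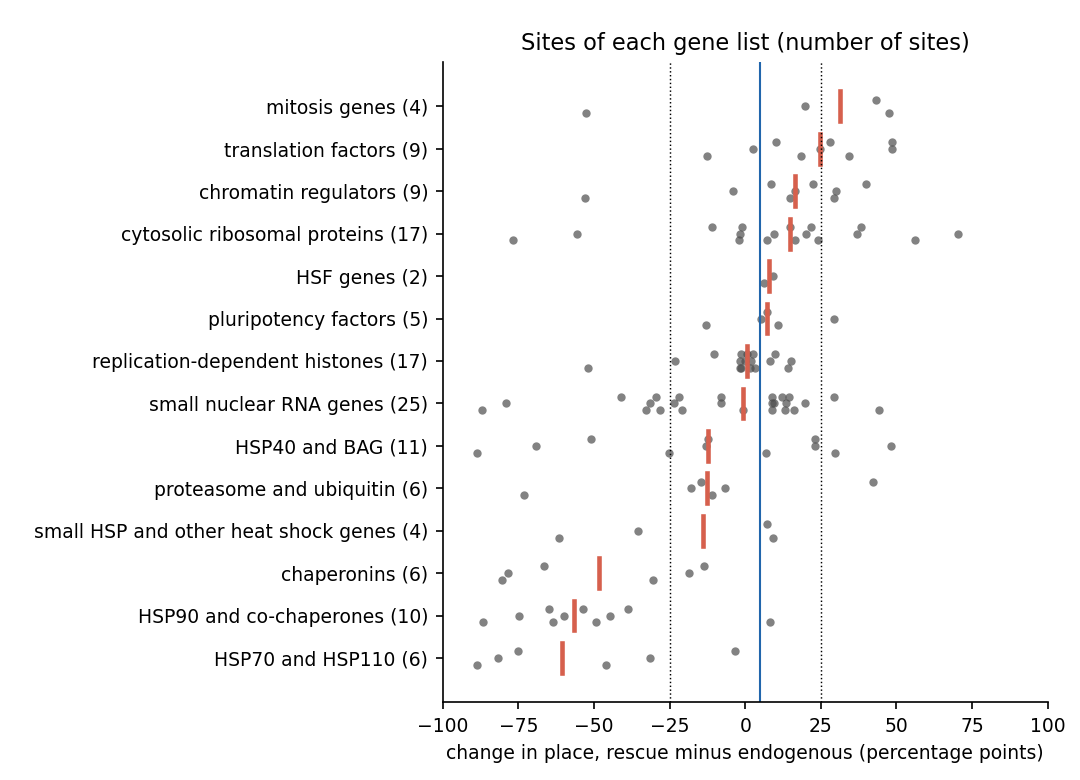
Change in place from the mitotic endogenous signal to the mitotic rescue (x axis, percentage points) at each site (points) of 14 gene lists (y axis, with the number of sites), the list median (red bar), the median of all sites (blue line, 4.83) and the limits of 25 points (dotted). The medians run from −60.6 for HSP70 and HSP110 genes to 31.5 for mitosis genes, of which there were 4 sites.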

How the data were processed

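The 4 libraries compared were CUT&Tag with α-HSF2 in mitotic cells, 2 of wild-type JM8 and 2 of Halo-HSF2 in Hsf2-/- cells. The authors aligned reads to mm10 with Bowtie2, kept PCR duplicates, scaled deepTools coverage by a constant over the dm6 spike-in reads, averaged the libraries of a condition and deposited this signal as a mean over every site; sites had been called with SEACR against IgG. These coverage values are not counts, so no count model was used, and read totals per library were not used here.

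Exact repeats were removed. Per site, log2 ratios without a pseudocount, ranks and places were computed. Elements were searched in GRCm38.p6 on chromosomes 1 to 19, X and Y. Sites took the names of genes with a coding transcript start (GENCODE M21 basic) inside or within 1 kb. A site with none is called near the gene of its nearest coding start, at any distance. Scripts ran in Python 3.11.15 (scipy 1.17.1, numpy 2.4.6, pandas 2.3.3, matplotlib 3.10.9), and functions were tested on simulated data. No p-value was computed, since sites are not replicates.

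The members and gene lists were chosen with earlier results of these data known. The named sites were all those of chaperone and HSF genes, the 10 with the best worst rank, the 10 largest falls from the endogenous top quartile, the 10 largest gains into the rescue top quartile, and the 2 largest falls and gains of each other list. Sites with an element that stood high in the rescue were added after their values had been seen. Some sites that these choices name are not reported here. Alternatives concerned the pseudocount, minimum signal, repeats, total signal, limits of the calls, the element and the distance to a start.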

Additional observations from a re-analysis of the deposited data

How the results depend on the processing

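Of 71 values recomputed under other settings, 54 stayed within the interval or 1.5 times the count of the value reported, and the sign turned in 1, the median change of small nuclear RNA genes (−0.75 points, 6.70 with starts within 5 kb, inside its interval). The 54 include settings that left the sites as they were. These were merged intervals and, for all lists but small nuclear RNA genes, starts inside the site. The median log2 ratio of −1.12 was −0.87 with a pseudocount of 1, −1.38 in the top quartile of the mean of both signals and −1.32 as the ratio of the means. Spearman's rho of 0.36 was 0.57 by total signal (mean times width, which puts site width into both rankings), and Pearson's r of log2 signals was 0.40. By total signal the median change in place was −29.9 points with an element and 5.72 without. With limits of 50 points 214 sites lost and 71 gained their place, 360 kept it within 5 points, and the top deciles shared 91 sites. With 4 consecutive units the median change was −64.0 with an element and 5.11 without, with an element within 250 bp of the centre −55.8 and 6.26, and with 1 unit base allowed to differ −1.73 and 9.96. In the last setting 1049 sites counted as holding an element. Merging intervals changed nothing, as none overlapped.

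The gene list medians stayed within their intervals with starts inside the site or within 5 kb. The small HSP, HSF, pluripotency and mitosis lists were too short for an interval, and the range of their sites was used instead. By total signal, an alternative chosen after the data were examined, the chaperone median was −32.0 points. No paired analysis was possible because the columns used are averages over the libraries of a condition, and leaving out a library was not run for that reason. Levels between signals rest on the spike-in scaling, whose common reference is unclear, and library depth was not used here.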

Other observations

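The 132 sites higher in the rescue than in endogenous HSF2 were weak endogenous sites, with a median signal of 2.97 (median place 12.7) that became 3.47 (median place 72.6). Of them 2 held an element, 28 overlapped an HSF1 site (21.2%, against 40.7% of all sites) and 7 a SOX2 site (5.30%, against 19.1%). By chromosome, the median change in place over chromosomes with at least 20 sites lay between −0.75 points on chromosome 10 (n = 110) and 18.1 on chromosome 16 (n = 47). A single site was listed at 0 in the mitotic rescue, and 13 were in the asynchronous rescue.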
